A study of Mus musculus with 59 samples.

Results

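The comparison described here is that of melan-a cells kept with agouti signaling protein (ASP) for 3 days against untreated melan-a cells. Melan-a is an established line of pigmented mouse melanocytes of the C57BL6 strain. Its arrays were chosen by the label of the treated channel and are 6 of the 59 in the series. Each array carried RNA of treated and of untreated cells side by side: on 3 arrays the treated RNA was labelled with Cy5 and on the other 3 with Cy3. The treated cells had received recombinant murine ASP at 10 nM for 3 days at 37 C, and the untreated cells received no agent that the labels name. Groups used for comparison were ASP at 10 nM for 2 days (5 arrays) and for 4 days (6 arrays), and alpha-melanocyte stimulating hormone (α-MSH) at 100 nM for 3 days (6 arrays), each against untreated cells of the same line. ASP at 10 nM for 3 hours and 1 day is described beside them. Those groups and α-MSH at 100 nM for 3 hours, 1, 2 and 4 days also entered the fit that estimates the error, 10 groups in all.

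ASP is the natural antagonist of the melanocortin receptor of pigment cells, Mc1r. α-MSH activates this receptor, which raises cyclic AMP and drives melanocytes towards black eumelanin, and ASP blocks that signal and shifts follicular melanocytes towards yellow pheomelanin. The question the comparison addresses is which transcripts differ between cells under such a block and untreated cells, and whether the state at 3 days differs from that at the neighbouring times and from that under the activating ligand.

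A value compares the 2 channels of an array on a log scale. Base 2 was assumed, and treated cells were read as the numerator, which is likely from the order in the design text. Neither is stated, and "higher" and "lower" rest on that reading. The files used here do not pair probe numbers with genes, so results are given for probes, no gene or pathway is named, and the labelled cell type could not be set against its marker genes. RNA came from whole cultures, in which less transcript per cell and fewer cells with the transcript cannot be told apart.

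The 6 arrays gave values for 22218 to 28491 of the 38591 probes, fewer than the α-MSH arrays at the same time, which gave 37744 to 38343. All 6 gave a value for 20553 probes, and none did for 7017. Before centring, the median of an array was -0.035, -0.017 or -0.023 where Cy5 marked the treated RNA and 0.082, 0.064 or 0.018 where Cy3 did. Centring set each to 0. Spot intensities were not used here, and precision is limited by how many arrays there are.

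The response to 3 days of ASP was broad and of moderate size. In limma, 3108 of 27923 tested probes (11.1%) had an adjusted p under 0.05. Treated cells were higher for 1903 (6.82%) and lower for 1205 (4.32%). The median log2 ratio was 0.84 among the higher and -0.72 among the lower probes, against 0.008 over all probes tested. A change of 2-fold or more was reached by 695 of the higher and 346 of the lower probes, and one of 4-fold or more by 98 and 32. The smallest change that passed was 0.363 on the log2 scale, and 80.1% of all tested probes lay within 0.5 of no change.

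Called probes with all 6 values had like medians in both dye orientations. The 1457 higher probes of this kind had a median log2 ratio of 0.79 on the arrays with treated RNA in Cy5 and 0.80 on those with it in Cy3. The 893 lower probes stood at -0.65 and -0.68. A single sign on all 6 arrays was found for 1958 of these 2350 called probes (83.3%), and for 4665 of all 20553 probes with 6 values (22.7%). Among called probes with a change of 2-fold or more, 478 of 496 had it. These shares describe probes that were called from the same arrays and are not a further test.

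**Figure D1:**
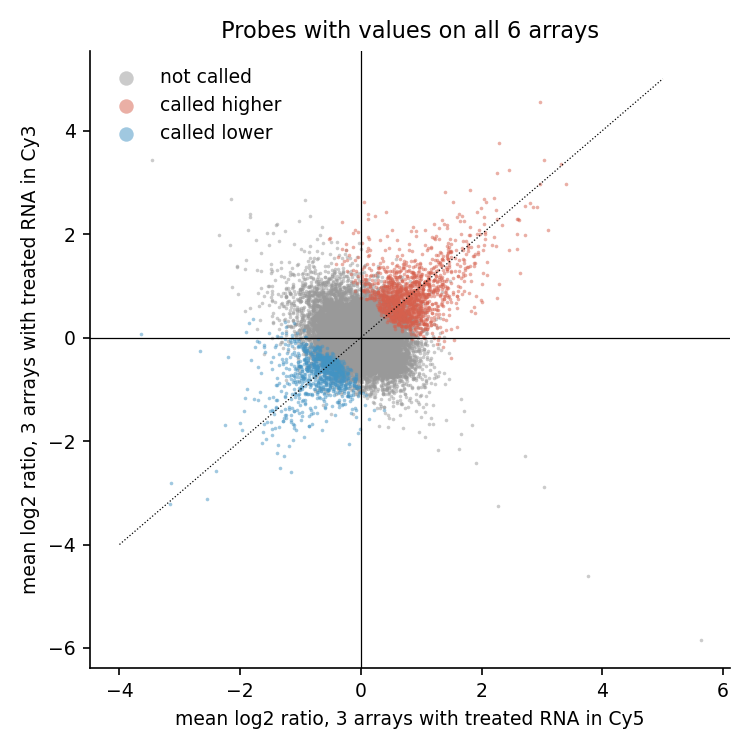
Each point is a probe with a value on all 6 arrays of ASP at 3 days. The horizontal axis is its mean log2 ratio over the 3 arrays with treated RNA in Cy5, the vertical axis that over the 3 arrays with treated RNA in Cy3, and the dotted line marks equal values. Called probes lie along that line, while probes at the upper left and lower right turn sign with the dye.

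Probe 1794161_1 rose the most. Its log2 ratios were 2.33, 3.37 and 3.19 where treated RNA carried Cy5, and 5.17, 3.77 and 4.73 where it carried Cy3. All 6 values lay far above 0, and those with treated RNA in Cy3 were the higher ones, with no overlap between the orientations. The mean over the 3 replicates was 3.76 ± 0.20 (SD, n = 3), a 13.5-fold rise (limma SE 0.29, adjusted p = 1.9e-08). A replicate is the mean of an assumed dye-swap pair, so this SD and those given below depend on the pairing. Here the assumed pairing joins the lowest array (2.33) with the highest (5.17).

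Probe 1776770_1 rose almost as far and with hardly any dependence on the dye. Where treated RNA carried Cy5 the log2 ratios were 2.96, 3.58 and 3.40, and where it carried Cy3 they were 3.53, 3.26 and 3.27. The orientations overlapped, and the mean was 3.33 ± 0.09 (SD, n = 3), a 10.1-fold rise (limma SE 0.33, adjusted p = 4.7e-07).

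Probe 1795447_1 fell the most. On arrays 1 to 3, with Cy5 on the treated side, it stood at -3.18, -3.55 and -2.75, and on arrays 4 to 6, with Cy3 there, at -2.93, -3.50 and -3.23. The orientations overlapped here too, and the mean was -3.19 ± 0.29 (SD, n = 3), 9.14-fold lower than in untreated cells (limma SE 0.50, adjusted p = 0.00017).

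Probe 1796764_1 followed, with -3.03, -3.16 and -3.23 on the Cy5 side and -2.77, -2.84 and -2.82 on the Cy3 side. The values were tight within each orientation and did not overlap between them. The mean was -2.97 ± 0.07 (SD, n = 3), 7.85-fold lower (limma SE 0.47, adjusted p = 0.00018). The fitted errors of both falling probes exceed their spread at 3 days, because the fit shares its estimate of the spread with all groups, and replicates under α-MSH at 3 days differed widely in these probes.

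**Figure D2:**
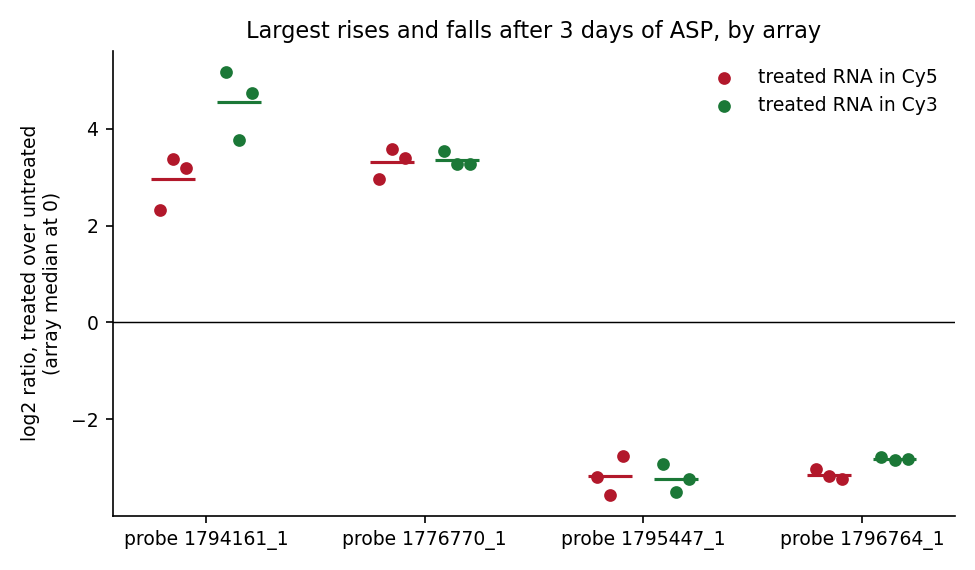
Log2 ratios of treated over untreated cells after 3 days of ASP for the 2 probes that rose most and the 2 that fell most, among called probes with 6 values of 1 sign. Each point is an array, red with treated RNA in Cy5 and green with it in Cy3, and lines are means of 3 arrays. All points lie above 2 or below -2.

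These 4 probes headed the rankings of change. Among called probes with 6 values of 1 sign, 1234 higher and 724 lower, the 15 largest rises ran from 3.76 down to 2.45 and the 15 deepest falls from -3.19 to -1.72. At rank 3 the rise was 3.24 and the fall -2.84, and the medians of the 15 were 2.72 and -1.87. The SD over replicates in these probes had a median of 0.22 for the rises, with a range of 0.09 to 1.04, and of 0.26 for the falls, with a range of 0.01 to 0.59. Falls were thus shallower at the same rank than rises. The limma adjusted p-values lay between 8.1e-09 and 8.8e-06 for the rises and between 4.7e-07 and 0.0087 for the falls.

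Both sets of 15 were chosen at 3 days, and their means at other times are given for comparison only. The rises had a median log2 ratio of 0.15 at 3 hours of ASP, 0.80 at 1 day, 1.47 at 2 days, 2.72 at 3 days and 2.44 at 4 days, where they ranged from 0.66 to 3.29. The falls went from 0.18 at 3 hours through -0.88 at 1 day and -1.31 at 2 days to -1.87 at 3 days and -1.83 at 4 days. With α-MSH at 3 days the rises had a median of -0.28 (range -1.35 to 0.36) and the falls one of 0.90 (range -0.44 to 1.93).

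Where a probe had been measured made a difference to whether, and in which direction, it was called. With 6 values, 11.4% of probes were called, and with fewer values but both dye orientations present, 8.53%. Of 1182 probes measured in 1 dye orientation only, 19.5% were called. Among these, the 1120 measured only with treated RNA in Cy5 gave 184 higher and 22 lower calls. The 62 measured only with treated RNA in Cy3 gave 0 higher and 24 lower calls (limma in each case).

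For these single-orientation probes the dye effect at 3 days could not be measured, and medians before and after the dye correction were compared. A probe without the opposite orientation at 3 days takes its dye effect from arrays of other times, where the median was -0.61 for the probes measured only with treated RNA in Cy5 and 0.09 over all probes tested. The median log2 ratio of these 1120 probes was -0.11 before and 0.46 after that correction. For the 62 with treated RNA only in Cy3 it was -0.53 before and -0.99 after. Leaving out all 1182 gives 2878 calls of 26741 probes (10.8%), 1719 higher and 1159 lower, and the 4 probes named above all have 6 values.

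**Figure D3:**
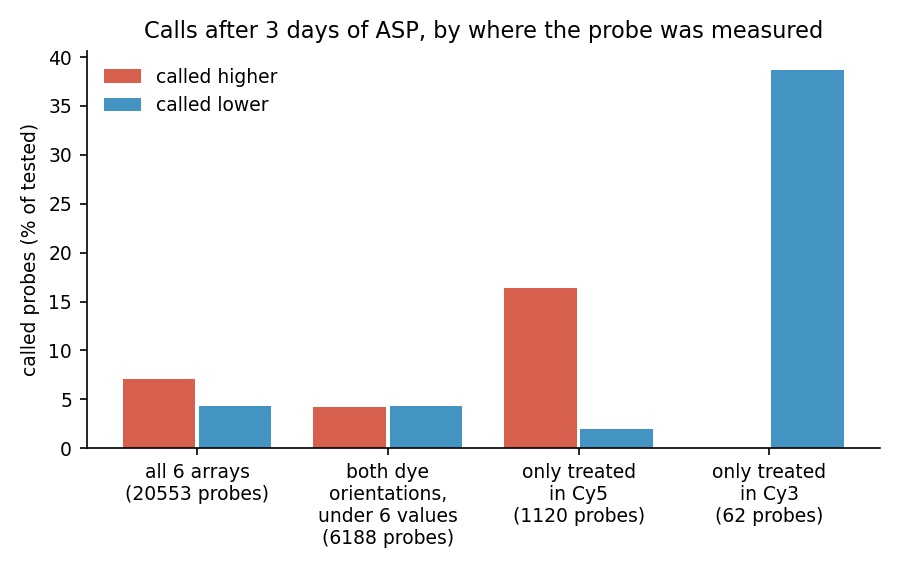
Percentage of tested probes called higher (red) or lower (blue) after 3 days of ASP, by the arrays on which the probe had a value. Calls were nearly balanced for probes seen in both orientations with under 6 values (262 higher, 266 lower), while probes seen only with treated RNA in Cy5 were mostly called higher (184 of 206) and those seen only with it in Cy3 were all called lower (24 of 24).

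Replicates at 3 days were moderately alike, and single arrays of opposite dye only weakly so. Over the 20553 probes with 6 values, the means of the assumed dye-swap pairs correlated between 0.614 and 0.641. Single arrays correlated between 0.572 and 0.670 within a dye orientation, but only between 0.083 and 0.219 across orientations. The 3 assumed pairs gave 0.161, 0.163 and 0.219, and the other combinations of opposite dyes 0.083 to 0.215, so that the correlations do not single out the assumed pairs. Points in these correlations are probes of the same arrays and not independent.

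The spread at 3 days was among the smaller ones of the series. Over 22781 probes with values in all replicates, the median SD over 3 replicates was 0.185 for ASP at 3 days, against 0.277 at 2 days, 0.211 at 4 days, 0.370 at 1 day and 0.266 for α-MSH at 3 days. It was smaller for α-MSH at 1 day (0.169) and at 2 days (0.184). These SDs also rest on the assumed pairs. The count of calls nevertheless depended on which replicates the error was estimated from. With the ASP replicates alone it was 1669, 1059 higher and 610 lower, and with the 3 replicates of 3 days alone 204, 150 higher and 54 lower. Without replicate 1, 2 or 3 it was 1595, 1593 or 1544.

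The first difference tested was that between 3 and 2 days of ASP. In limma, 66 of 27454 probes (0.24%) differed, 49 (0.178%) higher and 17 (0.0619%) lower at 3 than at 2 days, and 2503 (9.12%) had an unadjusted p under 0.05. The higher ones had a median log2 ratio of 1.58 at 3 days and -0.33 at 2 days, and the lower ones -1.79 and 0.21. Without centring of the arrays the split was 50 higher and 6 lower.

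Few of these 66 probes were fully measured. Only 21 had a value on all 6 arrays at 3 days, and 27 came from probes measured in 1 orientation, of which 2.52% were called, against 0.103% of those with 6 values. With complete dye-swap pairs only, 12 probes differed, and with ASP replicates alone, 0 (limma, with 1647 at an unadjusted p under 0.05). Without ASP replicate 2 at 3 days the count was 14, and without replicate 3 at 2 days it was 43, 23 higher and 20 lower. That replicate at 2 days is a single array, since 5 arrays of that group were analysed here.

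Between 3 and 4 days, 34 of 27699 probes (0.123%) differed in limma, 23 (0.083%) higher and 11 (0.0397%) lower at 3 days, with 1751 (6.32%) at an unadjusted p under 0.05. None of the 34 had a value on all 6 arrays at 3 days: 20 were measured in 1 orientation only and 14 in both with values missing. Among the 20548 probes with 6 values, 0 were called in limma and 598 (2.91%) had an unadjusted p under 0.05. With complete pairs only the count was likewise 0, with 853 at an unadjusted p under 0.05. The split of the 34 became 115 higher and 107 lower of 222 calls with the arrays scaled to the same spread and 25 higher and 19 lower of 44 with the dye bias removed by lowess. Without ASP replicate 2 at 3 days 13 were called, and without replicate 3 at 4 days 15.

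The 4 probes named above showed where these tests stood for strong changes. Their choice at 3 days favours a larger change there than at other times. Probe 1794161_1 had a mean log2 ratio of 0.15 ± 0.29 (SD, n = 3) at 3 hours, 0.70 ± 0.94 at 1 day, 2.27 ± 0.71 at 2 days and 3.20 ± 0.68 at 4 days. Its excess at 3 over 2 days was 1.49 (95% interval 0.63 to 2.34) and did not pass in limma (adjusted p = 0.15). It did pass with the arrays scaled to the same spread (2.04, adjusted p = 0.041) and on the arrays with treated RNA in Cy3 alone (2.58, adjusted p = 0.016). On the arrays with treated RNA in Cy5 alone the difference had the opposite sign (-0.32, limma adjusted p = 0.97). Under no other alternative run did it pass.

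Probe 1776770_1 was already at 1.44 ± 0.16 at 1 day and stood at 3.02 ± 1.26 at 2 days and 2.83 ± 0.56 at 4 days (SD, n = 3). Probe 1795447_1 went from -0.97 ± 0.66 at 1 day to -2.49 ± 0.45 at 2 days and -2.89 ± 0.28 at 4 days, and probe 1796764_1 from -0.96 ± 0.44 to -2.54 ± 0.51 and -2.79 ± 0.41. None of these 3 differed between 3 and 2 days or between 3 and 4 days in limma. The intervals of the difference between 3 and 4 days were -0.46 to 1.48 for probe 1776770_1, -1.77 to 1.17 for probe 1795447_1 and -1.56 to 1.21 for probe 1796764_1, which leaves room for changes of over 2-fold. At 3 hours they stood at 0.42 ± 0.21, 0.20 ± 0.10 and 0.36 ± 0.31.

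**Figure D4:**
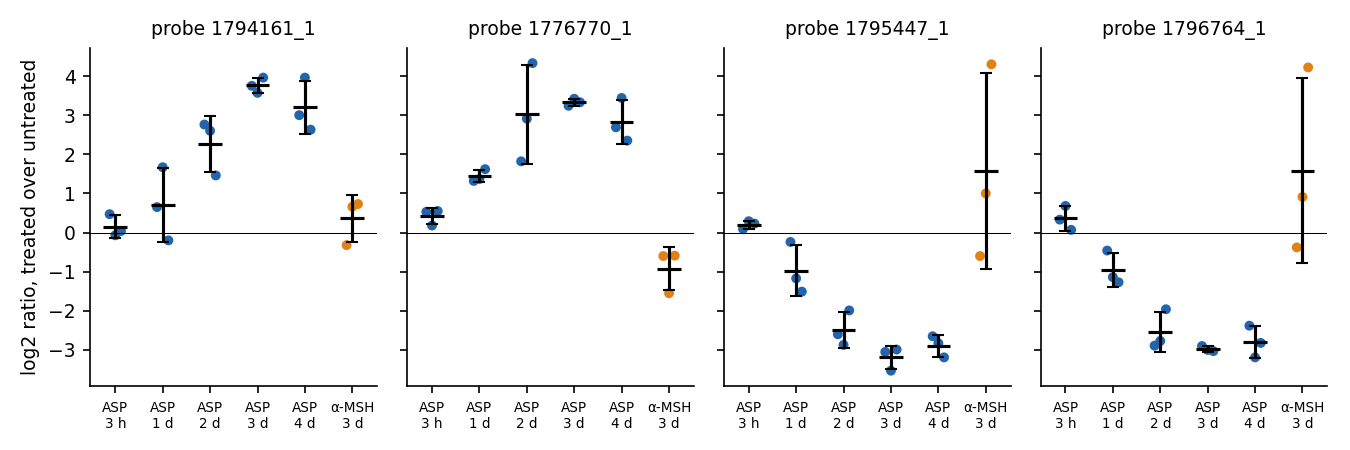
Log2 ratios of the 4 named probes over the times of ASP (blue) and for α-MSH at 3 days (orange). Points are the 3 replicates, long bars the mean and error bars the SD. The 2 falling probes follow nearly the same course, including an α-MSH replicate above 4.

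The probes called at 3 days were smaller in size at the other times, as a choice made on the 3-day arrays favours. The 1903 higher probes had a median log2 ratio of 0.79, 0.82 and 0.80 in the 3 replicates at 3 days, 0.30, 0.43 and 0.46 at 2 days and 0.60, 0.60 and 0.52 at 4 days. At 3 hours their medians were 0.04, 0.12 and -0.02, near those of all tested probes. The 1205 lower probes stood at -0.68, -0.70 and -0.71 at 3 days, -0.36, -0.35 and -0.26 at 2 days and -0.33, -0.50 and -0.41 at 4 days. At 1 day they were at 0.03, -0.28 and -0.26, and the replicate at 0.03 is the one in which all tested probes were raised, with a median of 0.33. The labels do not tell whether 1 untreated RNA served several times, so these values are given side by side without a test.

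**Figure D5:**
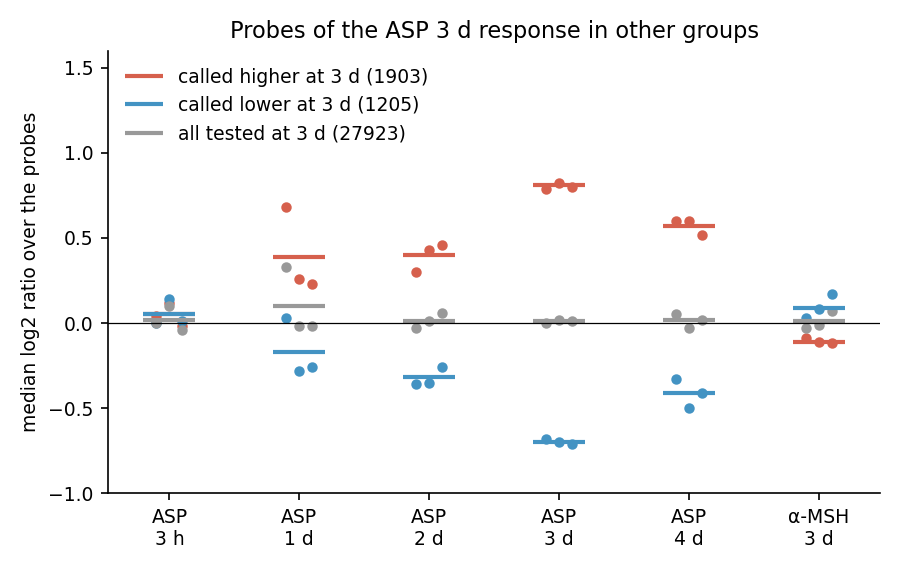
Median log2 ratio over the probes called higher (red) or lower (blue) after 3 days of ASP, and over all probes tested (grey), in each replicate (points) and as the mean of 3 replicates (lines). The sets lie together at 3 hours of ASP, are widest apart at 3 days, where they were chosen, and lie close to 0 with α-MSH.

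The last comparison was with α-MSH at the same time. In limma, 1836 of 27898 probes (6.58%) differed, 1085 (3.89%) higher and 751 (2.69%) lower with ASP than with α-MSH. The higher ones had a median log2 ratio of 0.94 with ASP and -0.25 with α-MSH, and the lower ones -0.69 and 0.32. In both directions the median with ASP lay further from 0 than that with α-MSH. Of the 1836, 1517 had 6 values with ASP, so these calls rested on fully measured probes far more than those between times.

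All 4 named probes differed between the ligands. They were chosen for their size with ASP at 3 days, and those values enter the difference, so a large one was favoured. Probe 1794161_1 stood at 0.36 ± 0.59 (SD, n = 3) with α-MSH, 3.40 below its value with ASP (limma adjusted p = 1.4e-05), and probe 1776770_1 at -0.92 ± 0.55, 4.25 below (adjusted p = 4.4e-06). Probe 1795447_1 had log2 ratios of -0.60, 1.00 and 4.30 in the 3 replicates with α-MSH, and probe 1796764_1 of -0.38, 0.91 and 4.22. Replicate 3 was thus far above the others in both. Their differences, -4.76 and -4.56, passed in the shared fit (adjusted p = 0.00016 and 0.00013) but not with the replicates of the 2 groups alone (limma adjusted p = 0.099 and 0.097). Without replicate 3 of α-MSH the differences were -3.39 and -3.24 (limma adjusted p = 0.00024 and 0.00013), and without replicate 1 they were -5.84 and -5.54.

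The comparison of ligands leaned on replicate 3 of α-MSH: without it, 972 probes differed, 672 higher and 300 lower with ASP, and without replicate 1, 2 or 3 of ASP 1185, 1169 or 1181. With arrays of a single dye orientation the split turned, from 268 higher and 591 lower with treated RNA in Cy5 to 3105 and 527 with it in Cy3. ASP and α-MSH arrays have separate ranges of database numbers and the doses differ, so ligand, dose and whatever else goes with those numbers cannot be told apart.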

How the data were processed

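Per the labels' protocols, total RNA from a column kit received Cy3 or Cy5 by indirect labelling. The deposited values are log2 ratios (base 2 assumed) of the 2 channels of an array, likely treated over untreated; the sources used here give no scanner, filter or normalization. Array medians were set to 0. A dye effect per probe (from every array with the same agent) was subtracted, and the 2 arrays of an assumed dye-swap pair (repeats 1 and 4, 2 and 5, 3 and 6) were averaged to 1 replicate. The 30 replicates of all 10 groups were fitted in limma 3.58.1 (lmFit and eBayes, R 4.3.3), with p-values adjusted after Benjamini and Hochberg over all probes with values in at least 2 replicates of each group compared and called under 0.05. The steps were run on simulated data with independent noise, the same dye effect at all times of an agent, and changes only in probes with 6 values. Of 100 probes changed by 1 on the log2 scale 88 were called, and of 100 changed by 2 all 100, with 27 false calls. Dye effects that differ between times and probes with missing values were not covered by these changes. The labels do not say that replicates came from separate cultures, though the design text calls them biological. Where they did not, p-values measure technical spread. Without gene names, the probes named are the 2 largest rises and 2 largest falls among called probes with 6 values of 1 sign. Members and rules were chosen with earlier results of these data known. Gene lists and markers prepared for the comparison could not be applied. Alternatives changed centring, scaling, dye correction, pairing, missing values, replicates and threshold.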

Additional observations from a re-analysis of the deposited data

Results flagged for a closer look

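In a direct test, 66 of 27454 probes (0.24%) were called between 3 and 2 days of ASP and 34 of 27699 (0.123%) between 3 and 4 days. Between ASP and α-MSH at 3 days, 1836 of 27898 (6.58%) were called. Of the 66, 21 had 6 values at 3 days, and of the 34, 0 did. With only the 2 groups compared in the fit, both counts between times were 0 in limma (1504 and 1309 at an unadjusted p under 0.05). The count between the ligands was then 465. The 4 named probes were chosen for their size with ASP at 3 days, which favours a difference from α-MSH. All 4 differed between the ligands, by 3.40 (1794161_1), 4.25 (1776770_1), -4.76 (1795447_1) and -4.56 (1796764_1) on the log2 scale, ASP minus α-MSH. The latter 2 did not pass in limma with the replicates of both groups alone (adjusted p = 0.099 and 0.097), and they were -3.39 and -3.24 without replicate 3 of α-MSH. No array of ASP at 3 days lay far from the other 5 in its median, its number of values, its SD or its value of a named probe.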

How the results depend on the processing

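The 4 named probes kept their direction and passed the threshold against untreated cells under every alternative run, but with the replicates of 3 days alone only just, at a limma adjusted p that rounds to 0.05 for each. Calls against untreated cells, 3108 in the main analysis, were 6897 with arrays scaled to 1 spread. They were 1669 with ASP replicates alone and 204 with the replicates of 3 days alone. On arrays with treated RNA in Cy5 or Cy3 alone they were 1277 and 3747. Of the main calls still tested there, 28% and 61.9% stayed called. Calls numbered 1431 at an adjusted p under 0.01, 1041 with a 2-fold minimum, and 1544 to 1595 without 1 replicate. Of the 3108, 2350 had values on all 6 arrays, and all of these stayed called when only such probes were adjusted together. That setting keeps the fit and the unadjusted p-values of the main analysis, so it is not a further test. The 66 calls between 3 and 2 days became 610 with scaling, 116 with lowess, 0 with ASP replicates or the 2 groups alone (1647 and 1504 at an unadjusted p under 0.05 in limma), 22 and 28 with single arrays (independent, or with the pair as a random block), 14 with values on every array, 12 with complete pairs, 414 with values in at least 1 replicate, 7 and 234 with treated RNA in Cy5 or Cy3 alone, 14 at 0.01, and 14 to 59 without 1 replicate. The 34 calls between 3 and 4 days became 222 with scaling, 2 with ASP replicates alone, 0 with the 2 groups alone (1309 unadjusted in limma), 68 with arrays paired 1-6, 2-4 and 3-5, 9 and 17 with single arrays, 0 with values on every array (503 unadjusted) or complete pairs (853 unadjusted), 261 with values in at least 1 replicate, 1 and 11 by dye, 10 at 0.01, and 13 to 39 without 1 replicate. The 1836 calls between the ligands became 4093 with scaling, 465 with the 2 groups alone, 859 and 3632 by dye, 788 at 0.01, 1164 with a 2-fold minimum, and 972 to 1695 without 1 replicate. Settings with fewer arrays or probes hold less data. With treated RNA in Cy3 alone, however, counts rose in every comparison but that of 3 with 4 days. The cause of a changed count was not tested for any setting. With the pair number as a block the counts were 2837, 64, 33 and 1638. Deviations of replicates at 3 days from their group mean correlated with those of same-numbered replicates at other ASP times at -0.021 to 0.201 (median 0.034). Of these 12 cases 2 lay above 0.1, both for replicate 1. Other numbers gave -0.149 to 0.129 (median -0.043). Whether same-numbered replicates share more than a number was not tested. The fit of ASP replicates alone gives no value for α-MSH. The dye effect estimated within each group and the use of complete pairs were chosen after seeing the data. The first gave 3178, 66, 37 and 1924 calls.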

Other observations

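Probes 1795447_1 and 1796764_1 moved almost as 1. Over the 30 replicates of the series their log2 ratios correlated at 0.99, and at 0.985 without the α-MSH replicate at 3 days in which both exceeded 4 (the points share arrays, and no test was made). The files used here do not say whether they belong to the same gene.

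The dye effect of a probe, which is its difference between the dye orientations divided by 2, was less alike between groups at 2, 3 and 4 days of ASP than elsewhere. Over the 18694 probes that all 59 arrays measured, that of ASP at 3 days correlated at 0.547 with ASP at 3 hours, 0.503 at 1 day, 0.33 at 2 days and 0.565 at 4 days, and at 0.367 with α-MSH at 3 days. ASP at 2 days correlated at 0.514 with ASP at 4 days. The median correlation of ASP at 3 days with the other 9 groups was 0.411. For the other groups the median was taken with ASP at 3 days left out. It was 0.208 for ASP at 2 days, 0.507 for ASP at 4 days, and between 0.685 and 0.749 for the rest. Among all α-MSH times and ASP at 3 hours and 1 day, the correlations between groups lay between 0.665 and 0.901.

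Some probes turned sign with the dye and not with the treatment. Of the 20553 probes with 6 values at 3 days, 199 had a dye effect of 2-fold or more, up to 5.73 on the log2 scale. In 164 of them all 6 arrays followed the dye, and 5 of these were among the called probes. A change of 2-fold or more was found in 504 probes, of which 8 were not called.

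Calls were spread over the probe table. In the first 18 blocks of 2000 probes in table order, between 9.25% and 13.2% of tested probes were called, and the share of higher probes among the calls ran from 49.1% to 72.7%. In the next 2000 probes, which had a value on 13.9% of the array positions, 28 of 323 tested were called (8.67%). The last 591 probes had a value on 3.92% of the array positions at 3 days, and 0 of the 24 tested were called.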
